A study of Mus musculus with 37 samples.

Results

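Heat shock chaperones are the proteins that fold new polypeptides, keep damaged ones soluble and hand them on for refolding or breakdown. The 10 genes described here encode the main ones of the cytosol and of the mitochondrial matrix: Hspa8, Hspa1a, Hsph1 and Dnajb1 of the HSP70 machine, the HSP90 pair Hsp90aa1 and Hsp90ab1, the small heat shock protein Hspb1, and the mitochondrial Hspa9, Hspd1 and Hspe1. They were chosen by symbol from tables that list 24411 genes in each of 4 experiments on mouse neurons in which, by the labels, Tet2 was deleted, knocked down or overexpressed. Earlier results of these data were known when the genes were chosen, so counts of them set against all genes are no neutral comparison. Tet2 is an enzyme that oxidises 5-methylcytosine in DNA. All 10 had a row in every table, and all 10 passed the filter used for testing (a mean normalized count of 0.5 or more) in every experiment.

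The experiments comprised 37 libraries of polyA-selected mRNA. In the first experiment, neuronal nuclei were taken from the hippocampus of C57/Bl6 mice that were WT (n = 4) or CamKIIaCreERt2;Tet2 cKO (n = 3). According to the series design both groups carry Tet2fl/fl alleles, and the Cre of the cKO mice is driven by the CamKIIa promoter, which is active in excitatory forebrain neurons, so other cells of these mice keep the gene. The first knockdown compared C57/Bl6 primary neuron cultures of embryonic day 17 infected with lentivirus carrying shLuciferase (n = 6) or shTet2 (n = 6). The second knockdown compared cultured primary neurons labelled shLuc (n = 6) with ones labelled Tet2 KD (n = 6), and the overexpression experiment compared cultured primary neurons labelled synGFP (n = 3) with ones labelled Tet2 OE (n = 3). No strain or age is given for these last 4 groups. All libraries of the second knockdown have the tag 3d in their deposited names, and those of the first knockdown do not. What this tag stands for was not settled. The labels do not say which libraries came from separate mice or cultures, so the p-values measure the spread between libraries, which may be technical.

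In resting cells HSP70 and HSP90 proteins are abundant because Hspa8, Hsp90ab1 and their partners are made all the time. Hspa1a, Dnajb1, Hspb1 and Hsph1 are classical heat shock genes, whose transcription rises when heat shock factor 1, the product of Hsf1, is released from chaperones that are busy with unfolded protein. Neurons are known for a weak heat shock response and for relying on constitutive chaperones at synapses, where Hspa8 strips clathrin from recycling vesicles.

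Factor 1 binds repeats of GAA and its reverse complement TTC, and the promoters of Hspe1, Hspa1a, Hspb1, Hsph1 and Dnajb1 are shown for these repeats. RefSeq promoters (assembly GRCm38.p6, 250 bases before to 50 after each annotated start) were found for 6 of the 10 members. None was found for Hspa8, Hspa9, Hsp90ab1 or the inducible Hsp90aa1. The stretches below are the 150 bases before the start, written 5′ to 3′ on the gene's strand, at chr1:55087998-55088147 (Hspe1, plus strand), chr17:34972157-34972306 (Hspa1a, minus strand), chr5:135887769-135887918 (Hspb1, plus strand), chr5:149636337-149636486 (Hsph1, minus strand) and chr8:83608025-83608174 (Dnajb1, plus strand). Capitals mark every match to GAANNTTC or TTCNNGAA, overlapping matches joined, both of which read the same on either strand.
Hspe1: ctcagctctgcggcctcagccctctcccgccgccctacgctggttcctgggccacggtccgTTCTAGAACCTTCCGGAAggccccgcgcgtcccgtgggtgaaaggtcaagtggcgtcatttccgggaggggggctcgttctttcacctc
Hspa1a: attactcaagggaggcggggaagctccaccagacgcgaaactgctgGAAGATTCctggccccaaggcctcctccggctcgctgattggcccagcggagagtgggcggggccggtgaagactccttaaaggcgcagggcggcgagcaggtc
Hspb1: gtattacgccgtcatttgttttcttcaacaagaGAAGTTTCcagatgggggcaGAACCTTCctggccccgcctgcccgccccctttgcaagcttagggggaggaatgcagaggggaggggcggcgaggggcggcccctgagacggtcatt
Hsph1: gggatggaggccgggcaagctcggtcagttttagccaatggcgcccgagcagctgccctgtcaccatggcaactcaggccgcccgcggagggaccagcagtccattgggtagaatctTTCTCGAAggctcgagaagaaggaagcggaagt
Dnajb1: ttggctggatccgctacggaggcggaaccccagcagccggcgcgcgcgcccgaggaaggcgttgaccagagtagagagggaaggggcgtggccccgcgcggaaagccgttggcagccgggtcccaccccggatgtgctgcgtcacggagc

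The Hspe1 stretch holds 3 overlapping pairs, and the longer runs GAANNTTCNNGAA or TTCNNGAANNTTC occur in it 2 times; its 300-base window holds no more. Of the 300-base windows of 32851 RefSeq promoters, 15.1% hold 1 of these pairs or more and 0.603% hold a longer run. Hspe1 and Hspd1 lie head to head on chromosome 1, and the second annotated start of Hspd1 is 216 bases from that of Hspe1. The 300-base window of that second start shares 285 bases with the Hspe1 window, the 3 pairs included, while the window of the first annotated Hspd1 start holds 0 pairs. The Hspa1a stretch holds 1 pair, the Hspb1 stretch 2 and the Hsph1 stretch 1, and Hsph1 has a longer run 36 bases after its start. Neither of the 2 annotated Dnajb1 windows holds these letters. A match describes the sequence and is no evidence that the factor binds there.

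By the GENCODE M21 annotation of the same assembly (mm10), Hspe1 spans chr1:55088132-55091307 with 2 exons in its longest transcript, and Hspd1 spans chr1:55077835-55088243 with 12. The 2 genes share 112 exon bases on opposite strands. Hspa1a is a single exon at chr17:34969190-34972156, about which 2 cautions apply. The predicted gene Gm20481 covers 564 of its exon bases on the other strand, and the strand setting used for counting is not given in the sources used here. Its copy Hspa1b lies nearby at chr17:34956436-34959238, and 47.1% of the 100-base windows of the Hspa1a transcript occur unchanged in the Hspa1b transcript. Reads of the pair may thus be split between them in the counting, and the counts of both are uncertain in that respect. Dnajb1 lies at chr8:83608193-83612653 (3 exons), Hspb1 at chr5:135887919-135889563, Hsph1 at chr5:149614287-149636376, Hspa8 at chr9:40800984-40810087, Hsp90aa1 at chr12:110690605-110702728, Hsp90ab1 at chr17:45567775-45573271 and Hspa9 at chr18:34937414-34954357. Hspa8 also hosts the small nucleolar RNAs Snord14c, Snord14d and Snord14e within its span.

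The libraries held 2709421 to 73220675 reads, recovered from the deposited values. The Tet2 OE libraries stood apart by depth, with 66684922 to 73220675 reads against 16988077 to 48321564 in synGFP, and with fewer genes detected (16457 to 18371 against 18540 to 21194). In the check of the targeted gene, Tet2 fell in the second knockdown (459 ± 75 to 175 ± 88 normalized counts, SD, n = 6 each) and was lower in every cKO library (484 to 866) than in every WT library (893 to 1070). It was not lower in the cultures labelled shTet2 (504 ± 149 against 461 ± 190), which are therefore called the libraries labelled shTet2 throughout. Tet2 was higher in every Tet2 OE library (2815 to 5592) than in every synGFP library (876 to 2391). By the limma test described below, Tet2 was not called in the overexpression experiment (log2 fold change 1.20, adjusted p 0.116). Nor was it called in the nuclei (-0.67, adjusted p 0.632). Groups without overlap occurred for 31.4% and 6.96% of all genes in these 2 experiments. Neuron markers were present in every experiment: the 10 of the list summed to 47483 to 92791 normalized counts in control cultures of the knockdowns. Microglia markers summed to at most 71.8 in the knockdown experiments, with Itgam at 0 throughout.

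Levels of different genes were compared per length, as reads scaled to kb of annotated exon and to the library's total reads (RPKM; Rn45s, the ribosomal precursor, counted in the total). Hspa8, the constitutive HSP70, was the highest member in nuclei and in the cultures of both knockdowns, with 466 ± 31 RPKM in WT nuclei (SD, n = 4), 877 ± 122 in shLuciferase and 1403 ± 80 in shLuc cultures (n = 6 each). Hsp90ab1, the constitutive HSP90, came next at 392.3 ± 32.6, 702 ± 106 and 871 ± 10. The ranges of these leading genes overlapped in WT nuclei and in shLuciferase cultures, and did not in shLuc cultures. Hsp90aa1, the inducible HSP90, followed in these 3 groups, at 90.3 ± 33.3, 293 ± 10 and 461 ± 27, below every Hsp90ab1 value.

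The mitochondrial trio followed in the cultures. In shLuc cultures the chaperonin Hspd1 stood at 117 ± 14, the matrix HSP70 Hspa9 at 78.9 ± 9.3 and the co-chaperonin Hspe1 at 55.6 ± 4.5 RPKM, with no overlap between neighbours. In WT nuclei the same genes had means of 8.91 to 16.45, among Hsph1 (19.65), Dnajb1 (16.7) and Hspa1a (8.13), and the ranges of neighbours in that order overlapped. Dnajb1, Hsph1 and Hspa1a were at 17.85, 17.15 and 7.71 in shLuc. Hspb1 was last in the nuclei and in the knockdown cultures, at 0.472 in shLuc and 1.82 in WT nuclei. Level and order across tables rest on separate experiments with different RNA extraction and were not tested.

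**Figure D1:**
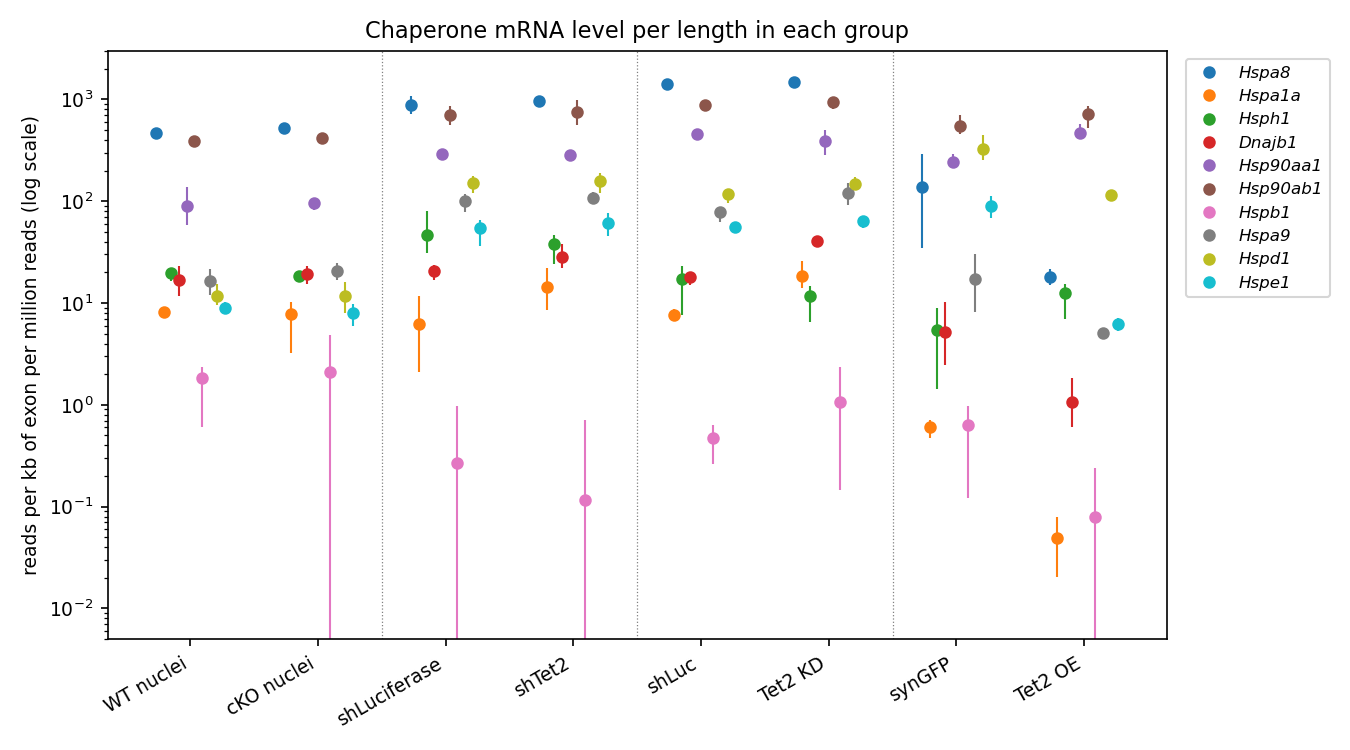
Level of each of the 10 chaperone mRNAs in the 8 groups, as reads per kb of annotated exon scaled to total reads (RPKM) on a log scale. Points are group means and lines run from the lowest to the highest library, a line that reaches the bottom of the axis standing for a library at 0; Hspa8 leads in the nuclei and knockdown groups, and Hsp90ab1 leads in the synGFP and Tet2 OE groups.

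In the synGFP cultures the order was another one. Hsp90ab1 led at 552 ± 133 (n = 3), followed by Hspd1 at 329 ± 101, Hsp90aa1 at 242 ± 42 and Hspa8, whose libraries ranged from 35.0 to 293. The ranges of Hspd1 and Hsp90aa1 overlapped, as did those of Hsp90aa1 and Hspa8. In Tet2 OE Hsp90ab1 stood at 716 ± 174, Hsp90aa1 at 468 ± 91, Hspd1 at 115 ± 11 and Hspa8 at 18.0 ± 3.4. Together the 10 members took 0.348% to 0.447% of the reads in nuclei, 0.725% to 0.986% in the first knockdown, 1.10% to 1.304% in the second and 0.359% to 0.528% in the overexpression libraries.

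The second Tet2 knockdown had higher mRNA of 4 of the 10 chaperones and lower mRNA of none. The inducible HSP70 Hspa1a and its J-domain partner Dnajb1, which delivers unfolded clients to HSP70 and starts its ATP cycle, stood at 2.48 and 2.32 times the control mean. The mitochondrial import and folding HSP70 Hspa9 and the matrix chaperonin Hspd1 rose by less. These calls are from limma-trend, a linear model per gene on log2(normalized count + 1) with variances shared across genes, at a Benjamini-Hochberg adjusted p under 0.05 over all genes tested. By that rule 25.9% of the 16164 genes tested were called, so 4 of 10 chaperones is read against a background of about 1 gene in 4. The 10 were chosen with earlier results of these data known, so the count describes them and is no test of enrichment. The median log2 fold change of the 10 was 0.29, against -0.02 over all genes.

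Hspa1a had 224, 253 and 297 normalized counts in the lowest, the median and the highest of the 6 shLuc libraries, and 465, 604 and 940 in the 6 Tet2 KD libraries. Every Tet2 KD library lay above every control. The change was 1.28 on the log2 scale (SE 0.14, limma adjusted p 2.39e-06), from a mean of 258 ± 28 to 641 ± 163, and an exact two-sided permutation test gave p = 0.00216, which is the lower limit for 6 and 6 libraries. The copy Hspa1b stayed near the limit of detection, at 3.34 ± 2.18 and 3.89 ± 3.02, so few reads of the pair were assigned to it in either group.

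Dnajb1 had the smallest p of the members. Its lowest, median and highest values were 557, 641 and 729 in shLuc and 1332, 1526 and 1710 in Tet2 KD. The lowest Tet2 KD library was thus well above the highest control. The log2 fold change was 1.21 (SE 0.10, limma adjusted p 4.33e-08; exact permutation p 0.00216), with means of 645 ± 60 and 1499 ± 145.

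Hspa9 had 3146, 3878 and 4309 normalized counts in shLuc and 4677, 5944 and 7281 in Tet2 KD (lowest, median, highest). The groups did not overlap, and the spread was wider in Tet2 KD. The change was 0.63 (SE 0.11, limma adjusted p 3.99e-04; exact permutation p 0.00216). Hspd1 had 2924, 3436 and 4076 in shLuc against 4047, 4345 and 5360 in Tet2 KD, so 1 control reached into the range of the knockdown. Its log2 fold change was 0.36 (SE 0.10, limma adjusted p 0.0133; exact permutation p 0.00649). In all, 3 of the 10 members had groups that did not overlap, against 12.2% of all genes.

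The other 6 members were not called. Hspe1, the lid of the Hspd1 chaperonin, whose gene lies head to head with Hspd1, had a log2 difference of 0.22 (SE 0.10, limma adjusted p 0.129), with 828 to 1075 normalized counts in shLuc and 909 to 1228 in Tet2 KD. After the correction for length and GC content it was called (0.31, adjusted p 0.0112). Hspa8 stood at 68172 ± 4888 and 73812 ± 4223, a difference of 0.12 with an interval of -0.12 to 0.35. For Hsp90ab1 the difference was 0.13 (-0.07 to 0.34). The inducible HSP90, Hsp90aa1, ranged from 17826 to 21435 in shLuc and from 12567 to 22250 in Tet2 KD, a difference of -0.23 (-0.50 to 0.03). Hsph1, an HSP110 that exchanges nucleotide on HSP70, was at 1402 ± 435 and 983 ± 245, a difference of -0.48 (-0.94 to -0.02, adjusted p 0.115), and it was called without shLuc 8 (-0.69, adjusted p 0.00537). Hspb1 had few reads, with 2.99 to 7.43 counts in shLuc and 1.69 to 29.6 in Tet2 KD, and it was called without Tet2 KD 5 (1.19, adjusted p 0.0254). So among heat-inducible members Hspa1a and Dnajb1 rose, while Hsph1 and Hsp90aa1 had negative differences that did not pass with all libraries.

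**Figure D2:**
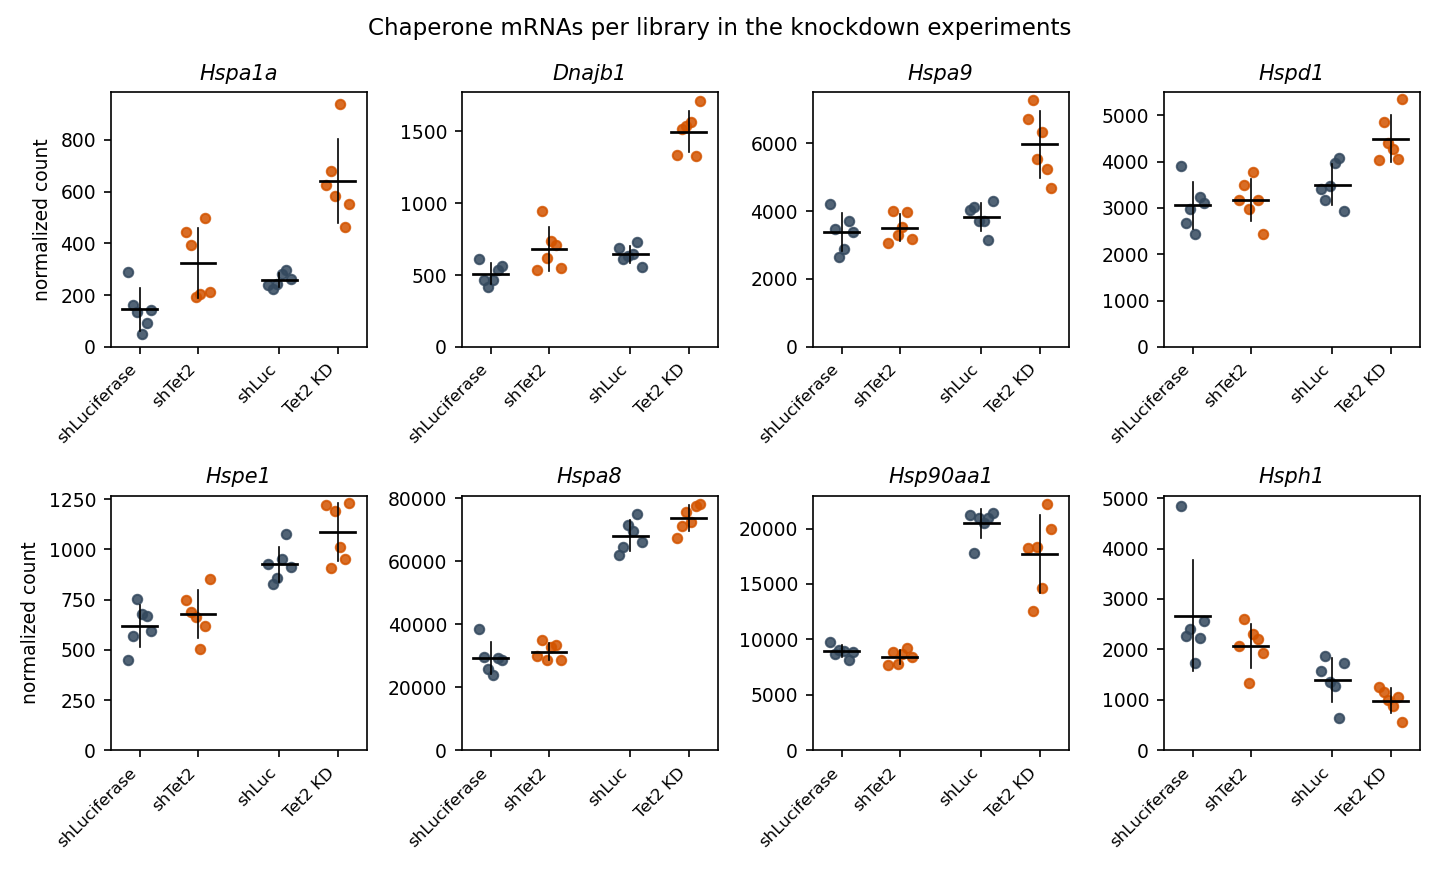
Normalized counts of 8 chaperone mRNAs in each library of the first knockdown (shLuciferase, shTet2) and the second (shLuc, Tet2 KD), each point 1 library, the horizontal line the mean and the vertical line the SD. In the second knockdown all Tet2 KD points of Hspa1a, Dnajb1 and Hspa9 lie above all shLuc points; the 2 experiments were normalized separately, so heights are compared only within an experiment.

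The 4 calls were also made by edgeR and DESeq2 on the recovered reads. Gene length and GC content were correlated with the log2 fold change across genes here too (Spearman -0.12 and 0.21). After the correction for length and GC content the 4 were still called, at 1.10 (Hspa1a), 1.18 (Dnajb1), 0.70 (Hspa9) and 0.41 (Hspd1). With fewer libraries, Hspa1a and Dnajb1 were still called both in the columns numbered 1 to 6 (1.40 and 1.25) and in those numbered 7 to 12 (1.16 and 1.19), a split chosen after seeing the data. Hspa9 was called only in the latter (0.81, against 0.45 with adjusted p 0.0792 in the former), and Hspd1 in neither (0.44 with adjusted p 0.0812 and 0.29 with 0.219). Hsph1 was lower only in columns 1 to 6 (-0.97, adjusted p 0.0185, against 0.02).

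Hsf1, which encodes the main heat shock factor, rose in the second knockdown. Its lowest, median and highest values were 186, 224 and 268 in shLuc and 306, 328 and 343 in Tet2 KD, with no overlap, a log2 fold change of 0.53 (SE 0.12, limma adjusted p 0.0023). Of the list of 6 heat shock factors it was called together with Hsf2 (0.48, adjusted p 0.0260), and the other 4 were not called. Over all genes 25.9% were called. In the columns numbered 1 to 6 alone Hsf1 was not called (0.43, limma adjusted p 0.183), and in those numbered 7 to 12 it was (0.64, 0.0201).

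Other chaperone lists were counted in the same fit, in which 25.9% of all genes tested were called in either direction. A list with about 1 gene in 4 called is therefore near the background. The lists, too, were chosen with earlier results of these data known. Among 9 regulators and nucleotide exchange factors of HSP70, 4 rose and 0 fell. Bag2, which blocks the ligase Stub1, went from 372 ± 55 to 725 ± 168 (0.94, SE 0.14, limma adjusted p 6.23e-05). Stub1, a ubiquitin ligase for chaperone clients, rose by 0.47 and Bag5 by 0.44 (adjusted p 0.00452 and 0.00495). The list's median was 0.43.

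Of 20 HSP90 co-chaperones 6 rose and 2 fell, with a median of 0.13. Ptges3 encodes p23, which holds HSP90 in its closed, ATP-bound form, and had the largest fall in the chaperone lists of this knockdown. It went from 967, 1117 and 1453 (lowest, median, highest of shLuc) to 228, 253 and 413 in Tet2 KD. The groups were far apart, and the log2 fold change was -2.10 (SE 0.14, limma adjusted p 5.07e-09). Fkbp4, an immunophilin that carries steroid receptors on HSP90, moved the other way, from 3451 ± 206 to 6129 ± 1032 (0.81, adjusted p 1.66e-05), and Cdc37l1 rose by 0.53 (adjusted p 0.00318).

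Among 9 further HSP70 and HSP110 paralogs 2 rose and 1 fell: Hspa4, an HSP110 (0.76, limma adjusted p 2.19e-04), Hspa2 (0.73, 4.33e-04), and Hspa12a, a divergent HSP70 (-1.31, 1.21e-05). Of 15 cytosolic J proteins, which share the HSP70-activating domain of Dnajb1, 2 rose and 3 fell, with a median of -0.13. Dnaja4 rose by 1.05 (adjusted p 0.00223) and Dnajb2 by 0.42 (0.00246), while Dnajc7 fell by 0.48 on the log2 scale (7.65e-04). Of 18 mitochondrial chaperones and proteases beside the members 4 rose and 1 fell. They included Dnlz, a zinc-finger partner of Hspa9 (0.75, adjusted p 1.93e-04), Dnaja3, its J protein (0.47, 6.18e-04), and the protease subunit Spg7 (0.63, 9.57e-04).

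Of 8 small heat shock proteins tested only Hspb3 was called (0.87, limma adjusted p 0.0126), and of 14 subunits of TRiC and prefoldin Cct4 and Cct8 rose, by 0.34 and 0.32 (0.0239 and 0.0398). Of 16 chaperones of the endoplasmic reticulum 7 rose and 1 fell. Examples are Dnajc3 (0.67, adjusted p 0.00134), Pdia6 (0.41, 0.00217) and Dnajc10, a reductase (-1.27, 6.88e-06). Markers of several cell types moved in the same comparison, in which 25.9% of all genes were called. Of 10 neuron markers 2 rose and 5 fell, and their summed level went from 73900 to 92791 in shLuc down to 55107 to 73866 in Tet2 KD. The 12 vascular and meningeal markers, of which 4 fell, summed to 204 to 297 and 86.1 to 162. Of 10 astrocyte markers 1 rose and 3 fell, with sums of 12744 to 14599 and 9815 to 11734, and of 10 oligodendrocyte lineage markers 3 fell, with sums of 4198 to 5324 and 2180 to 5374. In cultures a change in the share of a cell type and a change of RNA per cell cannot be told apart, and the part of these markers in the chaperone values was not tested.

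**Figure D3:**
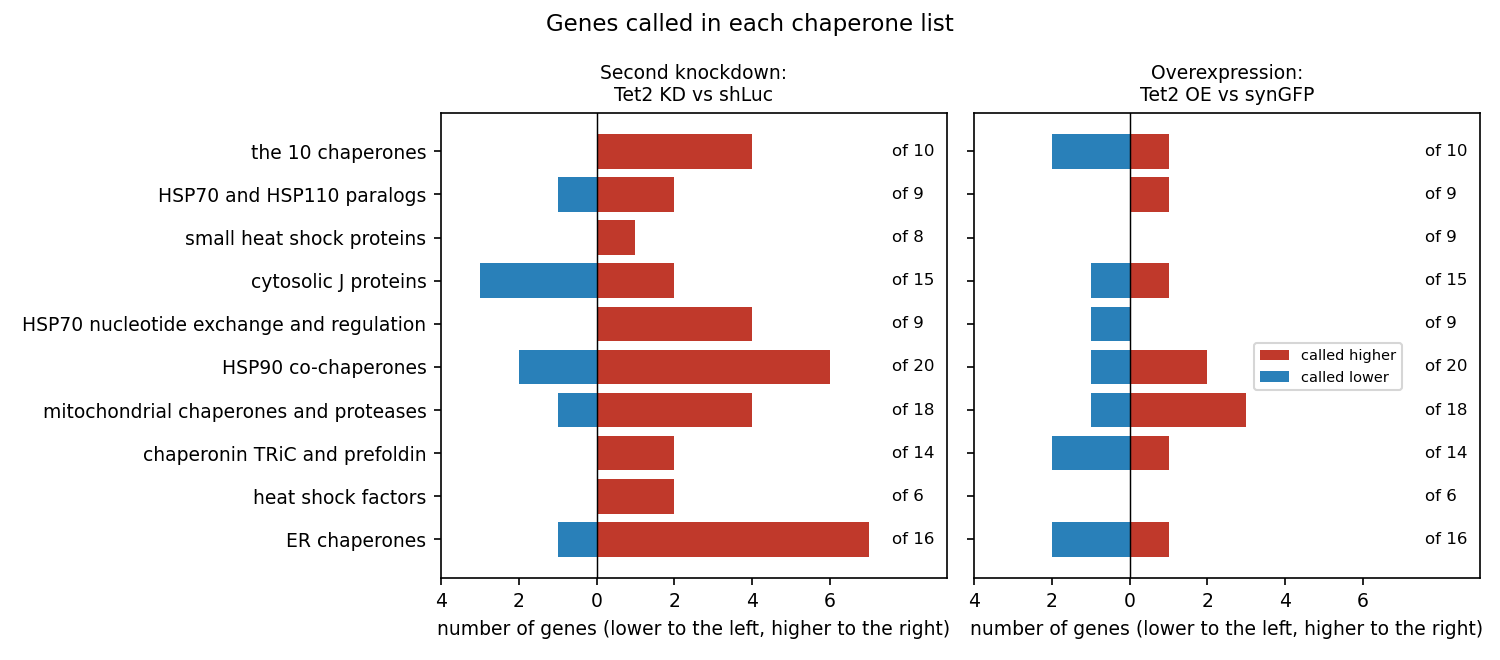
Number of genes called higher (red, to the right) and lower (blue, to the left) by limma at an adjusted p under 0.05 in each chaperone list, in the second knockdown and in the overexpression experiment, with the number tested at the right of each bar. In the second knockdown the 10 chaperones had 4 higher and 0 lower, and in the overexpression experiment 1 higher and 2 lower. Over all genes tested 25.9% and 9.96% were called in turn.

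In the first knockdown none of the 10 chaperones passed the adjusted threshold with limma, by which 1.93% of 18315 genes were called. At an unadjusted p under 0.05 there were 2, Hspa1a and Dnajb1, where 14.2% of all genes passed. With edgeR, which called 2.97% of genes, 0 members were called, and with DESeq2, which called 6.03%, Hspa1a was called. No member's groups were free of overlap, against 2.25% of all genes. The median log2 fold change of the 10 was 0.06, against 0.09 over all genes.

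Hspa1a had 47.8, 139 and 290 normalized counts in the lowest, the median and the highest shLuciferase library and 193, 304 and 496 in the libraries labelled shTet2. A single control, shLuciferase 1 at 290, lay within the range of the libraries labelled shTet2, and the other 5 controls lay below it. The log2 fold change was 1.24 (SE 0.37, limma adjusted p 0.102; exact permutation p 0.0195), and without shLuciferase 1 the gene passed. In the authors' deposited table the change was 1.17 with an adjusted p of 0.0360. Dnajb1 had 416, 503 and 609 in shLuciferase and 532, 662 and 945 in the libraries labelled shTet2, a difference of 0.40 (SE 0.18, limma adjusted p 0.303; exact permutation p 0.0260). The 2 genes that changed most in the second knockdown were thus also those with the largest positive differences among the members here.

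The other members differed little. Hspa9 was at 3383 ± 563 and 3510 ± 404 (0.06, 95% confidence interval -0.21 to 0.34), Hspd1 at 3058 ± 510 and 3176 ± 454 (0.06, -0.23 to 0.34) and Hspe1 at 619 ± 106 and 679 ± 118 (0.13, -0.23 to 0.49). Hspa8, Hsp90aa1 and Hsp90ab1 had differences of 0.11, -0.08 and 0.06 (SE 0.13, 0.11 and 0.15). Hsph1 was at 2667 ± 1100 and 2075 ± 434, the spread of the controls coming from shLuciferase 1 at 4838. Hspb1 was absent from 3 control libraries and from 5 of the libraries labelled shTet2.

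Of the genes in the other chaperone lists 1 was called in the first knockdown, where 1.93% of all genes were called. It was again Ptges3, with 640 to 1131 normalized counts in shLuciferase and 302 to 558 in the libraries labelled shTet2, without overlap (-1.05, SE 0.20, limma adjusted p 0.00548). Hsf1 stood at 342 ± 135 and 436 ± 115 (0.40, limma adjusted p 0.4931). The vascular and meningeal markers, of which 1 of 12 fell, summed to 398 to 725 in shLuciferase. In the libraries labelled shTet2 they summed to 167 to 283. Of 10 neuron markers 1 fell (Tubb3), and of 10 astrocyte markers 1 fell (Aldoc). Of 10 progenitor and proliferation markers 1 rose (Nes) and 1 fell (Hmgb2). No oligodendrocyte lineage or microglia marker was called. The part of these markers in the chaperone values was not tested.

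A model with both knockdown experiments tested whether their effects differ. By it 1.83% of 15796 genes were called, and among the 10 chaperones 1 was, Dnajb1, whose change was larger in the second knockdown by 0.81 (SE 0.19, limma adjusted p 0.0208). For Hspa9 the difference was 0.57 (95% confidence interval 0.22 to 0.92, adjusted p 0.0837). For Hspa1a it was 0.04, but with an interval of -0.82 to 0.89. Ptges3 fell by more in the second knockdown (-1.05, SE 0.24, adjusted p 0.0217). The effects on Tet2 itself, which was not lower in the first knockdown, differed by -1.72 (SE 0.41, adjusted p 0.0256). The experiments also differ in RNA extraction (TRIzol against RNeasy). They differ in the tag of the library names described above, and possibly in other ways the labels do not give. None of these differences can be told apart from the hairpins.

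In hippocampal nuclei no member passed, with limma (0% of 18780 genes called), edgeR (0% of 13566) or DESeq2 (0.61% of 14926), and 0 of 10 reached an unadjusted p under 0.05 in limma, where 6.97% of genes did. No member's groups were free of overlap, against 6.96% of all genes. The median of the 10 was 0.13, against -0.09 over all genes, and 7 of the 10 differences were positive.

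The largest positive difference in nuclei was that of Hspa9. Its values were 543, 636, 673 and 946 in the 4 WT libraries and 782, 924 and 1101 in the 3 cKO libraries. All but 1 WT library lay below the cKO libraries. The difference was 0.44 (95% confidence interval -0.07 to 0.95, limma adjusted p 0.755; exact permutation p 0.143). Hspa8 had 17726, 18758, 20023 and 22610 in WT and 22025, 22311 and 25861 in cKO (0.24, -0.18 to 0.67). Dnajb1 had 389, 404, 551 and 769 in WT and 508, 656 and 766 in cKO (0.32, -0.27 to 0.91), which is a full overlap.

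Hspa1a was steady over the WT nuclei, at 228, 230, 239 and 253, and scattered over the cKO nuclei, at 103, 303 and 312 (-0.15, 95% confidence interval -0.98 to 0.68). The interval of Hspa1a does not reach its 1.28 of the second knockdown, while that of Hspa9 includes its 0.63. Hippocampal nuclei and cultured neurons are unlike samples, so the 2 effects need not match. With 1 library left out, the Hspa1a difference in nuclei ran from -0.42 to 0.37. Hspe1 had 109 to 140 in WT and 90.0 to 147 in cKO, and Hsph1 1093 to 1562 and 1361 to 1493. No gene of the other chaperone lists was called in nuclei, and Hsf1 had a difference of 0.03.

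**Figure D4:**
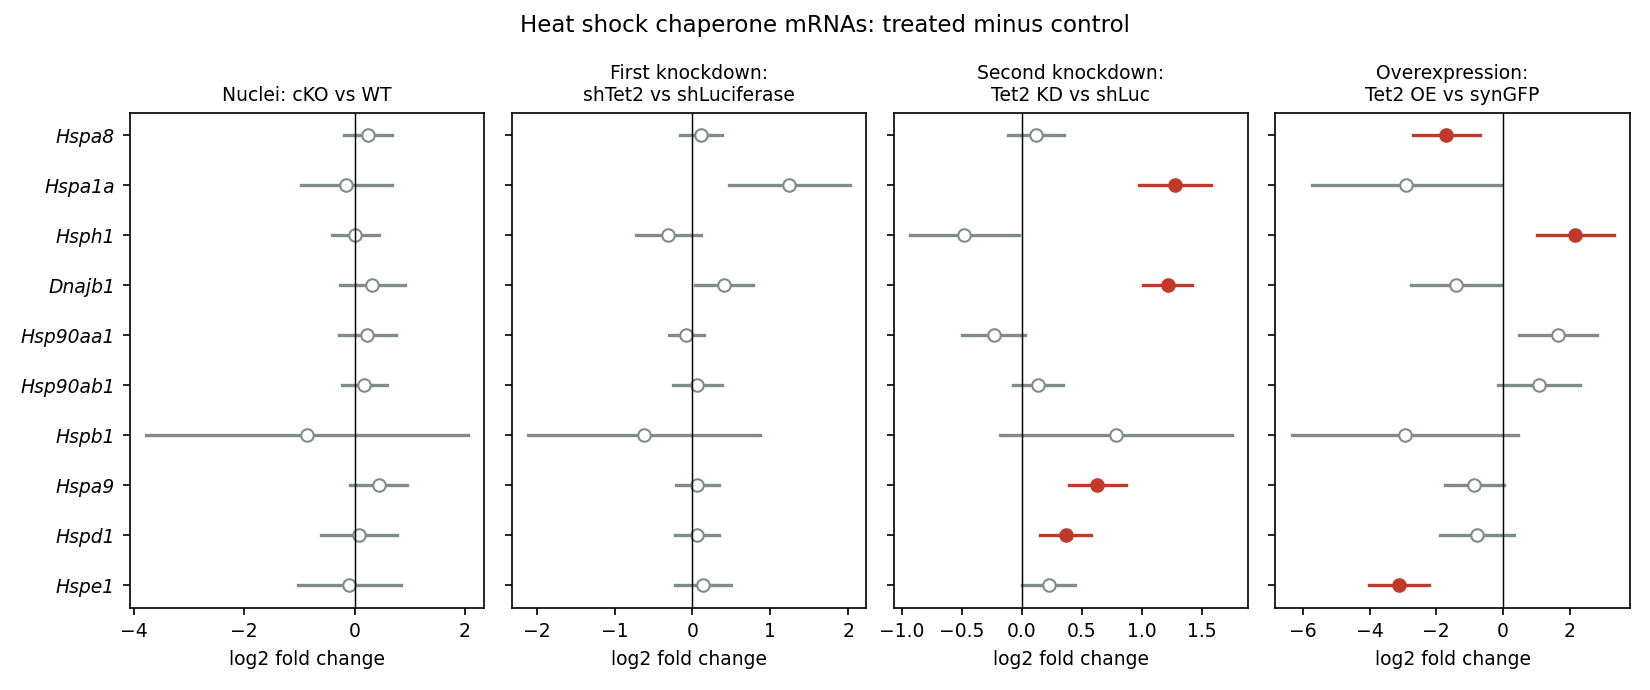
Log2 fold change (treated minus control) of the 10 chaperones in the 4 experiments from limma, with 95% confidence intervals; filled red points passed an adjusted p under 0.05, and each panel has its own axis range. Hspa1a and Dnajb1 are called in the second knockdown at 1.28 and 1.21, and Hspe1 is called in the overexpression experiment at -3.13.

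Tet2 overexpression was the comparison in which chaperones moved in opposite directions. The mitochondrial co-chaperonin Hspe1 and the constitutive HSP70 Hspa8 fell, and the HSP110 Hsph1 rose. Together 3 of the 10 members were called by limma, against 9.96% of the 22399 genes tested. The groups of 6 members did not overlap, against 31.4% of all genes. All genes together had a median log2 fold change of -0.75, so a fall must be read against that shift. The median of the members was -1.13. Ranked among the log2 fold changes of all genes tested, Hspe1 lay at percentile 11.1, Hspa8 at 30.9 and Hsph1 at 93.9. With 3 against 3 libraries the smallest exact permutation p is 0.1.

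Hspe1 had 3758, 5351 and 5368 normalized counts in the synGFP libraries and 462, 546 and 635 in the Tet2 OE libraries. Every control was several times higher than every Tet2 OE library. The log2 fold change was -3.13 (SE 0.43, limma adjusted p 1.49e-04; exact permutation p 0.1). It was the only member called in every alternative tried for this experiment, with and without each library. After a correction for gene length and GC content, added after seeing the data, it was -2.83 (adjusted p 0.0017).

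Hspd1, which works with Hspe1 in 1 complex, did not follow it to the same extent. It had 15173, 31036 and 61836 in synGFP and 15451, 16568 and 23064 in Tet2 OE. The lowest control was at the level of the Tet2 OE libraries, and the controls themselves spread over a wide range. The difference was -0.77 (95% confidence interval -1.88 to 0.34, limma adjusted p 0.349). With reads scaled to library totals Hspd1 was called (-1.48, adjusted p 9.36e-05), and leaving out 1 library gave -0.26 (without GFP 6) to -1.28 (without GFP 4). Hspa9 had 1857, 2360 and 2957 in synGFP and 1249, 1284 and 1351 in Tet2 OE. The groups did not overlap, but the difference of -0.86 (-1.75 to 0.03) did not pass (adjusted p 0.194) and was close to the median of all genes. With library totals it was called (-1.57, adjusted p 0.0232), where the median of all genes was -1.32.

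Hspa8 had 7934, 14372 and 28331 in synGFP and 4381, 4428 and 4896 in Tet2 OE. All Tet2 OE libraries lay below all controls, with far less scatter. The change was -1.70 (SE 0.48, limma adjusted p 0.0318). The call was lost with TMM factors (-1.50, adjusted p 0.0612) and after the length and GC correction (-1.60, adjusted p 0.0727). Hspa1a was low in this experiment, at 47.7, 74.2 and 74.4 in synGFP and 4.12, 7.87 and 13.7 in Tet2 OE. The groups were apart, but with so few counts the difference of -2.90 had an interval of -5.73 to -0.06 (adjusted p 0.172), and after the length and GC correction it was -1.17 (adjusted p 0.633). Its copy Hspa1b was as high as Hspa1a here, at 85.4 ± 46.5 and 11.4 ± 4.1, unlike in the knockdown cultures, and its difference after the same correction was -1.12 (adjusted p 0.615).

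Hsph1 was called higher in Tet2 OE, and both HSP90 genes had positive differences that did not pass in the main limma test. Hsph1 had 551, 990 and 2668 in synGFP and 2965, 5781 and 7743 in Tet2 OE, without overlap though the closest libraries were near each other. Its change was 2.17 (SE 0.55, limma adjusted p 0.0182), and it was not called when reads were scaled to library totals (1.46, adjusted p 0.0641). Hsp90aa1 had 19880, 34086 and 59958 in synGFP and 87023, 110470 and 132510 in Tet2 OE. The groups did not overlap, and the difference of 1.66 (0.49 to 2.82) had an adjusted p of 0.0652, while it was called by DESeq2 (1.53, adjusted p 0.0115), with library totals (0.95, 0.00154) and without GFP 6 (2.06, 0.0295). Hsp90ab1 had 33084, 56594 and 111370 against 107910, 119240 and 152500, which overlap at 1 control (1.08, -0.16 to 2.31, adjusted p 0.236). Dnajb1 differed by -1.39 (-2.74 to -0.04, adjusted p 0.168) and Hspb1 by -2.94 (-6.34 to 0.46), both with overlap. After the length and GC correction these were -0.55 (adjusted p 0.666) and -0.69 (adjusted p 0.821).

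**Figure D5:**
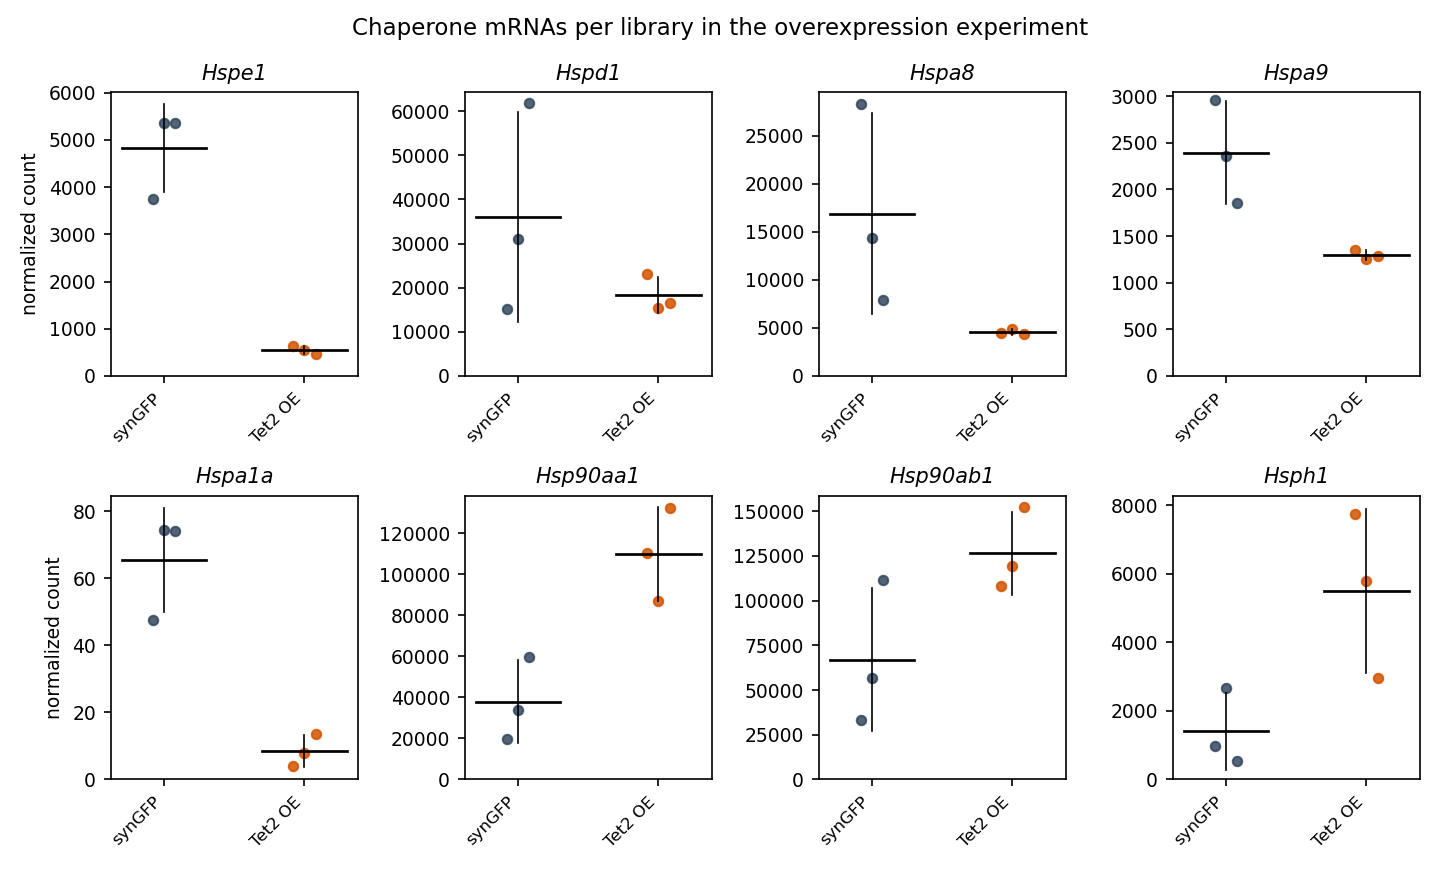
Normalized counts of 8 chaperone mRNAs in the 3 synGFP and 3 Tet2 OE libraries, each point 1 library, the horizontal line the mean and the vertical line the SD. Hspe1 separates with 3758 to 5368 against 462 to 635, and the controls of Hspd1, Hspa8 and Hsp90ab1 scatter widely.

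Leaving out 1 library at a time left 1 to 3 members called. Hspa8 was called only when GFP 6 was the library left out (-2.15), its adjusted p being 0.0601 to 0.14 without any other. Hsph1 lost its call without GFP 4, GFP 6, Tet2 OE 3 or Tet2 OE 4 (adjusted p 0.0732 to 0.0997). Gene length and GC content were correlated with the log2 fold change across genes (Spearman 0.26 and -0.26, genes not being independent), and the Hspe1 transcript is short (964 bases). Oligodendrocyte lineage markers, of which 1 of 10 rose and 2 fell, summed to 8446 to 11664 in synGFP and 4664 to 6141 in Tet2 OE. Microglia markers summed to 206 to 293 and 35.0 to 125 in the same order. Astrocyte markers, of which 2 of 10 rose and 0 fell, summed to 74255 to 240146 and 200370 to 242699. Neuron markers, with 0 of 10 called either way, summed to 72761 to 162619 and 155800 to 172559. Over all genes 9.96% were called. The shares of Rn45s reads also differed, 0.0607% to 0.411% in synGFP against 0.00452% to 0.00662% in Tet2 OE. The part of depth, of these markers and of these shares in the members' values was not tested, beyond the length and GC correction given above.

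Other chaperone genes gave a mixed picture in the overexpression experiment, in which 9.96% of all genes tested were called. The HSP90 co-chaperone Nudcd3 rose from 2398 ± 454 to 29920 ± 3531 (3.65, SE 0.41, limma adjusted p 3.43e-05) and Ttc4 rose by 1.61 (0.0408), while Fkbp4 fell by 1.94 on the log2 scale (0.0358). These were the 3 called of 20 co-chaperones. The HSP70 paralog Hspa1l rose by 3.40 (8.46e-04), the only one of 9. Among J proteins Dnajb4 rose by 2.67 (0.00208) and Dnajb5 fell by 4.53 on the log2 scale (0.0432), and of the HSP70 regulators Bag6 fell by 2.74 (0.0141).

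Of 18 further mitochondrial chaperones and proteases 3 rose, namely Clpb by 1.89, Afg3l2 by 1.70 and Yme1l1 by 1.64 (limma adjusted p 0.0136, 0.0256 and 0.0408). Dnaja3, the J protein of Hspa9, fell by 1.88 on the log2 scale (0.0149). Of 14 TRiC and prefoldin subunits Vbp1 rose (1.72, adjusted p 0.0320) and Tcp1 and Pfdn4 fell (-1.59 and -2.91, 0.0279 and 0.0353). In the endoplasmic reticulum Calr and Pdia3 fell (-2.09 and -1.60, 0.00393 and 0.0316) and Dnajc3 rose (1.97, 0.0318). No small heat shock protein and no heat shock factor was called. Hsf1 had 79.4 to 103 in synGFP and 5.15 to 46.5 in Tet2 OE, a difference of -1.98 with an adjusted p of 0.277.

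The effects of overexpression and of the second knockdown were compared in 1 model, in which all 10 members were called. This count carries little weight, since 40.9% of 16079 genes were called by the same test. The model also shares 1 variance per gene between the 2 experiments, although the overexpression libraries scattered more. Its SE was 0.45 for Hspa1a and 0.26 for Hspe1, below the 1.35 and 0.43 of the overexpression effect alone. The adjusted p-values and calls of this model are therefore too strong where the spreads differ. Over the 20 alternatives Hsp90ab1 was called in 9 and Hspd1 in 15, and the other 8 in all 20. The log2 fold change was lower in the overexpression experiment than in the second knockdown for Hspe1, Hspd1, Hspa8, Hspa9, Hspa1a, Hspb1 and Dnajb1. It was higher for Hsp90aa1, Hsp90ab1 and Hsph1. Over all genes in this model the median difference was -0.398. Hspa1a differed by -4.18 (SE 0.45, limma adjusted p 6.79e-07), Hspe1 by -3.35 (SE 0.26, 1.40e-08) and Dnajb1 by -2.61 (SE 0.43, 8.84e-05). Hsph1 differed by 2.65 (SE 0.58, 0.00125) and Hsp90aa1 by 1.89 (SE 0.36, 3.74e-04).

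Ratios between members within a library do not depend on how libraries are scaled. For 5 ratios in 4 experiments (20 exact permutation tests, p adjusted over the 20) the log2 ratio of normalized counts, not per length, was compared between groups. Dnajb1 over Hspa8 went from -6.72 ± 0.14 in shLuc to -5.62 ± 0.13 in Tet2 KD (exact p 0.00216, adjusted 0.0289), with no overlap. This ratio covers 1 J protein and 1 HSP70 only. The list of 15 cytosolic J proteins had a median log2 fold change of -0.13 there, with 2 higher and 3 lower. Hsp90aa1 over Hsp90ab1 went from -0.53 ± 0.08 to -0.90 ± 0.20 in the same comparison (exact p 0.00433, adjusted 0.0289). Hsph1 over Hspa8 was lower in the libraries labelled shTet2 than in shLuciferase, -3.94 ± 0.25 against -3.52 ± 0.29 (exact p 0.00433, adjusted 0.0289). Leaving out each library in turn, a check chosen after seeing the data, with the exact p adjusted again over the 20, Dnajb1 over Hspa8 passed each time (adjusted p of at most 0.0433). Hsp90aa1 over Hsp90ab1 did not pass without shLuc 1, 3, 7 or 9 (adjusted p 0.0577 to 0.0722), nor Hsph1 over Hspa8 without shLuciferase 1 or shTet2 1, 3, 4, 5 or 6 (0.0577 to 0.144).

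In the overexpression experiment the ratio of Hspd1 to Hspe1, the ring and the lid of the mitochondrial chaperonin, was 2.69 ± 0.77 in synGFP and 5.05 ± 0.20 in Tet2 OE, without overlap (exact p 0.1, the smallest possible, adjusted 0.231). Hsph1 over Hspa8 went from -3.70 ± 1.21 to 0.16 ± 0.69. In WT and cKO nuclei none of the 5 ratios was separated (smallest exact p 0.171).

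Within groups the members did not vary as 1 block. Over the 31 libraries of the nuclei and the knockdowns, after subtracting group means, the highest Pearson correlations of log2 values between members were 0.59 for Hspa8 with Dnajb1 and 0.56 for Hspa9 with Hsph1. The HSP90 pair, Hsp90aa1 with Hsp90ab1, had 0.51. For Hspe1 with Hspd1 it was -0.41. Over all 37 libraries these values were 0.42, 0.48, 0.74 and 0.0088 in turn. These values describe libraries that share depth and scaling, and were not tested.

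Among 15325 genes kept in every table, the genes whose group-centred values over all 37 libraries were most like a member's were Cct2 for Hspd1 (Pearson 0.86), BC005624 for Hspa8 (0.86), Lmo4 for Hsp90ab1 (0.88) and Stmn2 for Hsp90aa1 (0.87). For Hsph1 it was Ncoa4 (0.83), for Dnajb1 Cnot8 (0.80) and for Hspa9 Alg2 (0.74). Hspb1, Hspa1a and Hspe1 had lower best values, with Yars (0.72), Zdhhc3 (0.72) and Rpsa (0.65). No member was the best match of another.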

How the data were processed

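The authors deposited 1 table per experiment. The submitters' processing notes name DESeq2, RSEM, STAR and the build mm10, while versions, annotation and strand setting are not given in the sources used here. Each library's deposited signal is its normalized count per gene, and its values were whole multiples of 1 step in each library (100% within 0.01 reads), which gave back the reads. The deposited baseMean, log2 fold changes with standard errors, the deposited score and the deposited p-values are DESeq2 output, per the file headers, and the nuclei fold change, which ran control over treated, was turned. No column of per-sample values was left unused. Columns of the second knockdown and of the overexpression experiment were mapped to groups only, as their numbers differ from the titles.

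Tests used limma 3.58.1 in R 4.3.3 on log2(value + 1), which understates changes of low genes, for genes with a mean of 0.5 or more, with Benjamini-Hochberg adjustment over all genes at 0.05, and exact two-sided permutation tests for single genes. Only libraries of 1 experiment entered its fit, except in the models of differences. The fitting was tested on simulated data. Alternatives were pseudocounts of 0.5 and 5, a minimum mean of 10 or none, TMM factors, library totals, edgeR 4.0.16 and DESeq2 1.42.0 on recovered reads, each library left out, a replicate block, and, chosen after seeing the data, a length and GC correction and the second knockdown's columns 1 to 6 or 7 to 12 alone. All 10 members were named in each experiment, with Tet2, Hsf1 and Hspa1b, up to 3 called genes of smallest p per chaperone list, and the genes most like each member. Yme1l1 was named beyond this rule after its value was seen. Members and lists were chosen with earlier results of these data known. Replicate numbers of the first knockdown did not pair libraries (correlations of deviations -0.14 to 0.06).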

Additional observations from a re-analysis of the deposited data

Results flagged for a closer look

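Among 50 sets of member values (10 genes in each of 5 groups of 4 or 6 libraries), 4 libraries lay far from the rest of their group, where chance gives about 1 in 20 sets. Hsp90aa1 was 17826 normalized counts in shLuc 2, the lowest of its group, the other 5 shLuc libraries lying between 20491 and 21435. Hsph1 was 4838 in shLuciferase 1, against 1727 to 2560 in the other 5. Hspb1 was 5.44 in shTet2 5, with 0 in the other 5 libraries labelled shTet2, and 5.80 in WT 5, against 22.8 to 23.2 in the other 3 WT nuclei. The Hspb1 values stand for few reads. Dnajb1 changed more in the second knockdown than in the first, by 0.81 on the log2 scale (limma adjusted p 0.0208, and called in all 26 alternatives tried); it was higher in 6 of 6 Tet2 KD libraries than in any shLuc library.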

How the results depend on the processing

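Of 755 member values under alternatives, 710 kept their direction and side of the threshold, 15 lost a call, 11 gained one and 19 changed sign, none of these 19 being called with either setting. The cause of these changes was not tested. In nuclei 0 members were called under each alternative run; with library totals Hspd1 was -0.011, Hsph1 -0.078 and Hsf1 -0.063, with edgeR Hspa1a was 0.021 and Hspb1 0.26, and with DESeq2 Hspa1a was 0.011, Hspb1 0.26 and Hsph1 -0.0025 on the log2 scale. Leaving out 1 library moved nuclei values from -0.23 to 0.12 (Hspe1), -0.16 to 0.34 (Hspd1), -0.42 to 0.37 (Hspa1a), -2.09 to 0.77 (Hspb1), -0.11 to 0.064 (Hsph1) and -0.20 to 0.20 (Hsf1). In the first knockdown DESeq2 called 1 member, and leaving out 1 library gave 0 to 1 (Hspa1a, without shLuciferase 1), with ranges of -0.00389 to 0.13 (Hspd1), -0.00604 to 0.13 (Hspa9) and -0.016 to 0.14 (Hsp90ab1). In the second knockdown Hspa1b was -0.072 after the length and GC correction, -0.15 in columns 1 to 6, and -0.29 to 0.48 without 1 library, and Hsph1 was 0.016 in columns 7 to 12. In the overexpression experiment 5 members were called with library totals (Hspe1, Hspd1, Hspa8 and Hspa9 lower, Hsp90aa1 higher), with 2656 of 22451 genes called, which moved the median of all genes from -0.75 to -1.32, and 1 to 3 without 1 library. The difference between knockdowns ranged from -0.078 to 0.062 (Hspa8), -0.00502 to 0.15 (Hsp90ab1) and -0.20 to 0.31 (Hspa1a) without 1 library.

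Counts over all genes moved by more than 1.5 times as follows: nuclei 91 with DESeq2 against 0; first knockdown 888 with DESeq2, 222 without shLuciferase 3 and 234 without shTet2 4, against 354; second knockdown 1149 and 2655 in columns 1 to 6 and 7 to 12, against 4180; overexpression 4084 with DESeq2, 1363 after the length and GC correction and 642 to 1482 without GFP 4, GFP 5 or any 1 Tet2 OE library, against 2230; difference between knockdowns 148 to 181 without shLuc 1, Tet2 KD 4 or Tet2 KD 10, against 289, and 436 without Tet2 KD 5. Of the calls in the overexpression experiment 1386 of 2230 were higher, against 860 of 2656 with library totals and 1126 of 1363 after the correction. With the replicate number as a block (replicate block) in the first knockdown, 0 members and 206 genes were called, and Hspa1a had an adjusted p of 0.0849. Same-numbered libraries did not deviate together, and 1 of 6 numbers correlated best with its own. No paired analysis was possible because the nuclei groups share no number, and the column numbers of the other 2 experiments are not those of the titles. Depth limits Hspb1 and Hspa1b, with few reads per library.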
